A study of Mus musculus with 23 samples.

Results

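The transcripts of the vascular endothelial growth factor (VEGF) ligands and receptors were followed in the hippocampus of exercised and sedentary male mice and of their male offspring. The family was taken as 9 genes by symbol, of 51912 genes in the 2 deposited tables of normalized counts: the ligands Vegfa, Vegfb, Vegfc and Pgf, the receptor tyrosine kinases Kdr, Flt1 and Flt4, and the neuropilins Nrp1 and Nrp2. All 9 had a normalized count of at least 10 in each of the 23 libraries, so none was lost to the filter at that level. No member differed between groups past the threshold, an adjusted p under 0.05, in any of 5 comparisons, and the values below are given library by library as levels, spreads and intervals.

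All mice were wild type C57BL/6 males. The 4 exercised fathers had daily treadmill sessions of 40 minutes through 6 weeks, and the 4 sedentary fathers had no access to exercise. Both groups did behavioural tasks, were bred and were killed at 7 months. The 7 offspring of exercised fathers and the 8 offspring of sedentary fathers did the same tasks and were killed at 5.5 months, with no exercise of their own recorded in the labels. Whether every library came from its own animal, and which father sired which offspring, is not given in the labels, so the p-values reflect only sample-to-sample spread, part of which may be technical. Replicates 1 and 2, 3 and 4, and 5 and 6 of the offspring of exercised fathers share the first part of their title. No offspring of sedentary fathers do. The libraries of such a pair were also the most alike in counts within the offspring of exercised fathers. They may not be independent, so 7 may overstate the independent samples of that group. With these libraries averaged, the offspring log2 difference was -0.21 for Vegfa and -0.25 for Flt1, with a limma adjusted p of 0.6225 for each.

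VEGF ligands are secreted growth factors that bind receptor tyrosine kinases on blood vessel and lymphatic endothelium. VEGFA acting on KDR is the main signal for the growth, survival and permeability of blood vessels, FLT1 binds VEGFA, VEGFB and PGF and can act as a trap for ligand, and FLT4 is the receptor for VEGFC. In the adult hippocampus, neurons and astrocytes also make VEGFA, which is known for its effects on capillaries and on adult neurogenesis. Neuropilins are co-receptors that bind class 3 semaphorins as well as some VEGF forms, and neurons carry them too.

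Recovered reads ranged from 33667580 to 55172616 per library, and both tables were on 1 scale. No gene of the 13 marker lists stood at 0 across all 23 libraries, which alone does not show that each cell type was present. Choroid plexus markers, of the epithelium that borders the hippocampus, varied most between libraries of 1 group, with summed normalized counts of 2973 to 191700 in the sedentary fathers. The 3 libraries exercised fathers replicate 4 and sedentary fathers' offspring replicates 7 and 8 carry barcodes of another number series, AD21. In bulk tissue, fewer cells of a type and less RNA per cell cannot be told apart.

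Members were ordered by level per kilobase of the longest annotated transcript. Vegfb, the ligand of FLT1 known for its roles in fatty acid handling and cell survival, stood highest at 1386 ± 109 normalized counts per kilobase (SD, n = 23). Nrp1 averaged 821 ± 75.4, Nrp2 556 ± 35.7, Vegfa 523 ± 54.6 and Flt1 429 ± 62.1 normalized counts per kilobase (n = 23 each). The remaining members lay well below these. Kdr averaged 118 ± 24.6, Pgf 49.7 ± 8.66, Vegfc 43.6 ± 5.74 and Flt4 23.4 ± 3.22 normalized counts per kilobase (n = 23 each). Most neighbours in this order kept it in 23 of 23 libraries. The exceptions were Nrp2 above Vegfa in 16 of 23, Vegfa above Flt1 in 22 of 23 and Pgf above Vegfc in 16 of 23, so Nrp2 and Vegfa, and Pgf and Vegfc, were not separated beyond their spread. The order depends on the transcript length used. Per kilobase of all exons joined, Vegfa followed Vegfb at 421 ± 43.95, ahead of Nrp2 at 315 ± 20.3 and Nrp1 at 306 ± 28.1 (SD, n = 23 each), and Vegfc lay above Pgf in 19 of 23 libraries.

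**Figure D1:**
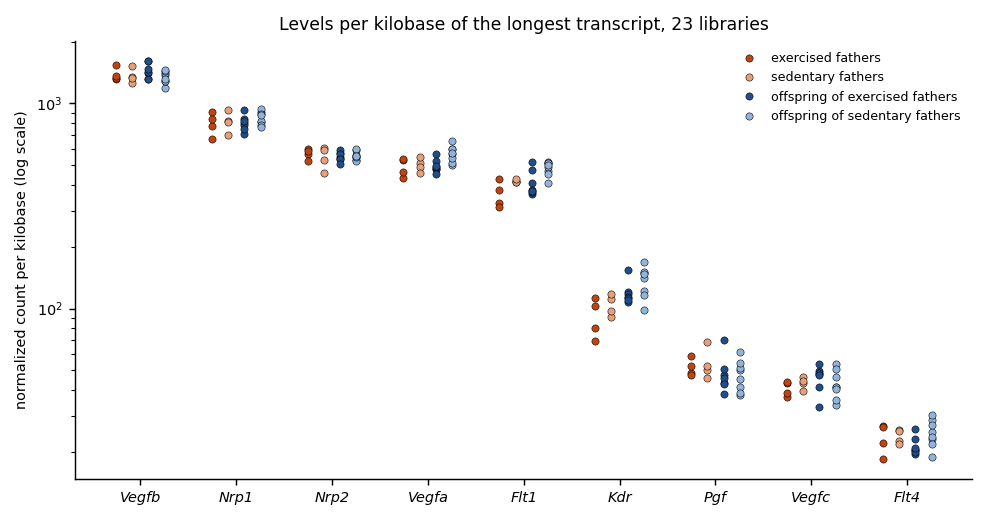
Normalized count per kilobase of the longest transcript (log axis) for the 9 members, one point per library, with the 4 groups side by side in the order exercised fathers, sedentary fathers, the offspring of exercised and then of sedentary fathers. The upper 5 members lie between 314 and 1614 normalized counts per kilobase, and the other 4 between 18.5 and 169.

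The members also differed in how much they varied among libraries of 1 group. The within-group SD on the log2 scale was 0.10 for Nrp2, 0.11 for Vegfb, 0.12 for Vegfa, 0.14 for Nrp1 and 0.16 for Flt1. It was 0.19 for Flt4, 0.20 for Vegfc, 0.23 for Kdr and 0.24 for Pgf, against a median of 0.14 over the 18377 genes tested. Kdr had the widest range of the family, with its highest library 2.45 times its lowest, and Nrp2 the narrowest at 1.32 times.

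Vegfa (ENSMUSG00000023951.17, GRCm38 chr17:46016993-46032369, minus strand) encodes the ligand that drives most VEGF signalling in vessels. Its normalized counts were 1826.4, 1858.0, 1491.5 and 1598.2 in the exercised fathers and 1763.1, 1693.8, 1587.3 and 1899.9 in the sedentary fathers. The offspring of exercised fathers ran from 1566 through a median of 1693 to 1945, and the offspring of sedentary fathers from 1732 through 1966 to 2266. The fathers' groups overlapped throughout. In the offspring the groups overlapped between 1732 and 1945. Among offspring of exercised fathers, 5 of 7 lay below all 8 offspring of sedentary fathers, and all 7 below the median of the latter. Replicates 1 and 2 of the offspring of exercised fathers lay within the range of the offspring of sedentary fathers.

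The comparison of exercised with sedentary fathers asked how running had left hippocampal expression, and that of the offspring groups asked the same of the sons. In the offspring, Vegfa averaged 1720 ± 125 for offspring of exercised fathers (SD, n = 7) and 1966 ± 175 for offspring of sedentary fathers (n = 8). The log2 difference was -0.19 (SE 0.06), with an unadjusted p of 0.00396 and an adjusted p of 0.381 by limma, so it did not pass. Over 31 alternatives it lay between -0.22 and -0.16, with limma, edgeR or DESeq2 adjusted p between 0.107 and 0.720. In the fathers the log2 difference was -0.04 (SE 0.08, limma adjusted p = 0.900). It was 0.02 without exercised fathers replicate 3 and 0.0056 without sedentary fathers replicate 4. The difference between the fathers' and the offspring's exercise contrasts was 0.15 (95% interval -0.06 to 0.36, limma adjusted p = 0.909).

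Vegfb (ENSMUSG00000024962.13, GRCm38 chr19:6982473-6987651, minus strand) had normalized counts of 1683.5, 1707.2, 1735.1 and 1967.7 in the exercised fathers and of 1603.0, 1716.6, 1708.4 and 1954.6 in the sedentary fathers. In the offspring of exercised fathers it ran from 1687 through 1813 to 2068, and in the offspring of sedentary fathers from 1527 through 1721 to 1872. The groups overlapped in both generations, and 3 of 7 offspring of exercised fathers lay above all offspring of sedentary fathers. The log2 difference in the offspring was 0.11 (SE 0.05, unadjusted p = 0.0615, limma adjusted p = 0.516) and that in the fathers 0.02 (SE 0.07, adjusted p = 0.934). With the trend of each library on transcript GC content removed, the offspring value was 0.03.

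Vegfa and Vegfb therefore had estimates of opposite sign in the offspring, and their ratio is given as a description. Vegfa over Vegfb was 0.961 ± 0.146 in the exercised fathers (SD, n = 4), 0.997 ± 0.0729 in the sedentary fathers (n = 4), 0.934 ± 0.122 among offspring of exercised fathers (n = 7) and 1.14 ± 0.0891 among offspring of sedentary fathers (n = 8). It ranged from 0.761 to 1.08 in the offspring of exercised fathers and from 1.06 to 1.35 in the offspring of sedentary fathers, so the 2 ranges overlapped only between 1.06 and 1.08. This ratio holds the same offspring values as the differences above and is not separate support for them. Its overlap was not set against that of other gene pairs, and no GC trend was removed from it.

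The remaining ligands were scarce. Vegfc, the lymphangiogenic ligand of FLT4 (ENSMUSG00000031520.6, GRCm38 chr8:54077606-54187096, plus strand), had 105.7, 90.8, 108.0 and 95 normalized counts in the exercised fathers and 106.8, 96.9, 113.3 and 108.4 in the sedentary fathers. It ran from 81.3 through 117 to 131 in the offspring of exercised fathers and from 82.8 through 101 to 132 in the offspring of sedentary fathers. The offspring ranges overlapped almost fully, and exercised fathers replicates 2 and 4 lay below all sedentary fathers. Its log2 difference was -0.09 (SE 0.11, limma adjusted p = 0.826) in the fathers and 0.10 (SE 0.12, adjusted p = 0.798) in the offspring.

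Pgf, placental growth factor, a ligand of FLT1 (ENSMUSG00000004791.7, GRCm38 chr12:85166635-85177790, minus strand), had 100.6, 98.8, 122.3 and 109.6 normalized counts in the exercised fathers and 104.2, 95.2, 108.9 and 142.4 in the sedentary fathers. It ran from 79.4 through 95.1 to 146 in the offspring of exercised fathers and from 78.8 through 99.2 to 129 in the offspring of sedentary fathers. A single library was high in each of 2 groups, replicate 4 of the sedentary fathers and replicate 7 of the offspring of exercised fathers. By limma the log2 difference was -0.05 (SE 0.14, limma adjusted p = 0.929) in the fathers and 0.02 (SE 0.13, adjusted p = 0.978) in the offspring, and without that replicate 7 the offspring value was -0.08.

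**Figure D2:**
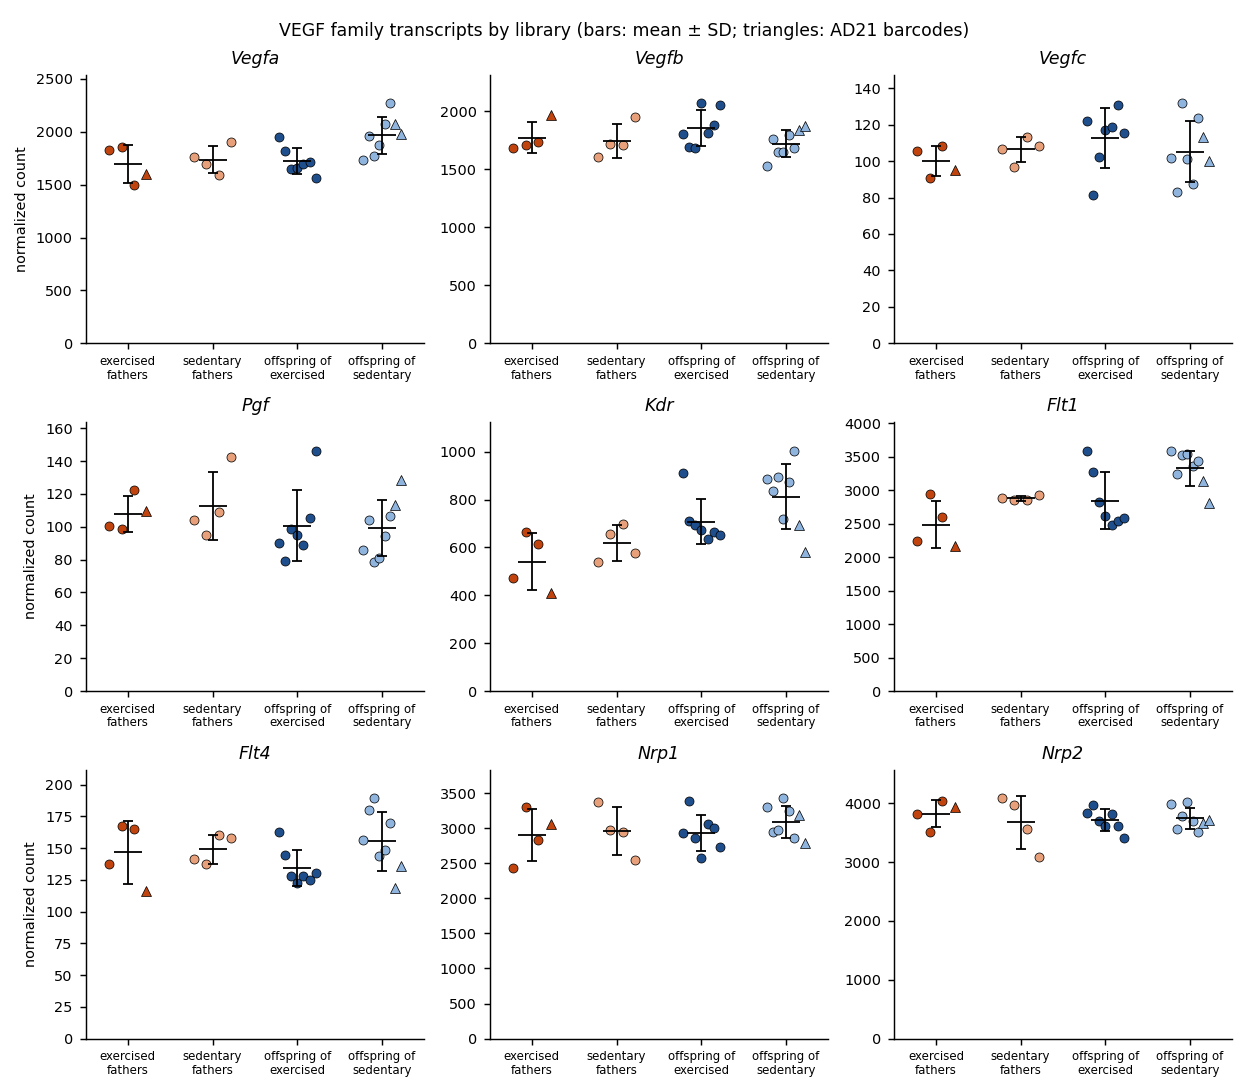
Normalized counts (axes from 0) of the 9 members in each library, with the mean and SD of each group; groups run from left to right as exercised fathers, sedentary fathers, the offspring of exercised and then of sedentary fathers, and triangles mark the 3 libraries with AD21 barcodes. Vegfa, Kdr and Flt1 sit highest in the offspring of sedentary fathers, and the triangles are among the lowest libraries of their groups for Kdr, Flt1 and Flt4.

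The 3 receptor genes varied together from library to library, which is why their promoters are shown. Centred on group means, r over 23 libraries was 0.79 for Kdr with Flt4, 0.77 for Kdr with Flt1 and 0.69 for Flt1 with Flt4. Why they varied together was not tested, and the promoter windows do not test it. The RefSeq windows of 250 bases before to 50 after each start in GRCm38.p6 follow, 5′ to 3′ on the strand of the gene. Capitals mark the GC box GGGCGG or its reverse complement CCGCCC and the TATA box TATAAA or its reverse complement TTTATA, letters that Sp1-type factors and the TATA-binding protein are known to bind.
Kdr, chr5:75978406-75978705, minus strand: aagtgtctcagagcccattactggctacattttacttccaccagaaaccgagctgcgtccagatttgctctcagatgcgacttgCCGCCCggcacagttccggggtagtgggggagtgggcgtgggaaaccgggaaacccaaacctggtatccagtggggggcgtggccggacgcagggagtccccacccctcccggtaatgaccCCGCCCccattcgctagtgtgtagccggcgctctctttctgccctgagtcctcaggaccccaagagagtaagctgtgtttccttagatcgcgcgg
Flt1, chr5:147725962-147726261, minus strand: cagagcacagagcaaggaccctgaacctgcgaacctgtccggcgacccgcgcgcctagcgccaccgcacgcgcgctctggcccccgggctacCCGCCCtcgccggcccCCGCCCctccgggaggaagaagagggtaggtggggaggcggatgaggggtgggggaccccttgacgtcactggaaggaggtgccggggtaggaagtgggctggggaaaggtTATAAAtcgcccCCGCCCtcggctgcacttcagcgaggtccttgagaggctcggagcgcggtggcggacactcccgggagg
Flt4, chr11:49609429-49609728, plus strand: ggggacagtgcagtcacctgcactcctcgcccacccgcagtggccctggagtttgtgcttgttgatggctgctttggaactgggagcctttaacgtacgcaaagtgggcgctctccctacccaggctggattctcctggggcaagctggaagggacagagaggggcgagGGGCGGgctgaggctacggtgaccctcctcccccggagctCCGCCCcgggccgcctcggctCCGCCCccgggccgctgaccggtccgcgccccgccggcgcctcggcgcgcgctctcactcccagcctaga
Each of the 3 windows holds a GC box, 2 in Kdr, 3 in Flt1 and 3 in Flt4, where 35.7% of the 32851 RefSeq windows of this length hold at least 1. The Flt1 window also holds a TATA box that begins 31 bases before the start, where 13.6% of all windows hold 1, and the Kdr and Flt4 windows hold none. GC content was 60.7% in the Kdr, 70.7% in the Flt1 and 70.3% in the Flt4 window, against a median of 52.7%. The GC box is not particular to these 3 genes, since a window of each of the other 6 members also holds at least 1, with 4 in Vegfb and 5 in Nrp2. These matches are letters in a window and not shown to be bound sites.

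Flt1 (ENSMUSG00000029648.13, GRCm38 chr5:147561604-147726011, minus strand), which encodes VEGF receptor 1 and its soluble form, was the most abundant receptor gene per kilobase. Its normalized counts were 2247.0, 2940.2, 2606.3 and 2164.0 in the exercised fathers and 2884.0, 2860.3, 2853.6 and 2938.1 in the sedentary fathers. The 4 sedentary fathers were nearly identical (SD 38.4), whereas the exercised fathers spread widely (SD 357): 3 of them lay below every sedentary father and 1, replicate 2, lay just above all of them. In the offspring of exercised fathers Flt1 ran from 2488 through a median of 2616 to 3586, and in the offspring of sedentary fathers from 2810 through 3400 to 3590. Of the 7 offspring of exercised fathers, 4 lay below all offspring of sedentary fathers, while replicates 1, 2 and 3 lay among the values of that group.

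In the fathers, Flt1 averaged 2489 ± 357 in exercised and 2884 ± 38.4 in sedentary animals (SD, n = 4 each). Between the groups, the log2 difference was -0.22 (SE 0.08, unadjusted p = 0.0255, limma adjusted p = 0.576). In the offspring, Flt1 averaged 2848 ± 423 for offspring of exercised fathers (n = 7) and 3330 ± 262 for offspring of sedentary fathers (n = 8). On the log2 scale, the difference was -0.23 (SE 0.08, unadjusted p = 0.00714, limma adjusted p = 0.412). Neither passed the threshold, although both estimates kept their sign under each alternative run, at -0.31 to -0.16 in the fathers and -0.29 to -0.15 in the offspring. Their difference was 0.01 (95% interval -0.25 to 0.28). The fathers' value was -0.31 without exercised fathers replicate 2, and -0.16 without the AD21 library, replicate 4.

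Kdr (ENSMUSG00000062960.10, GRCm38 chr5:75932827-75978458, minus strand) encodes VEGF receptor 2, the main signalling receptor of blood vessel endothelium. Its normalized counts were 474.0, 664.9, 613.2 and 410.2 in the exercised fathers and 538.0, 657.7, 699.8 and 577.9 in the sedentary fathers. It ran from 635 through 674 to 912 in the offspring of exercised fathers and from 582 through 855 to 1003 in the offspring of sedentary fathers. Exercised replicates 1 and 4 lay below all sedentary fathers and the other 2 among them. In the offspring of exercised fathers, 6 of 7 libraries lay in a narrow band and replicate 1 stood apart above it, while the 2 lowest offspring of sedentary fathers were the AD21 libraries. For Kdr the log2 difference was -0.21 (SE 0.15, unadjusted p = 0.186, limma adjusted p = 0.713) in the fathers and -0.19 (SE 0.10, unadjusted p = 0.0836, adjusted p = 0.547) in the offspring. The fathers' value was -0.32 without exercised fathers replicate 2 and -0.09 without replicate 4, and passed in neither.

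Flt4 (ENSMUSG00000020357.3, GRCm38 chr11:49609263-49652739, plus strand), which encodes VEGF receptor 3, the receptor of lymphatic endothelium and of sprouting vessels, had 137.9, 167.7, 165.1 and 115.9 normalized counts in the exercised fathers and 141.5, 137.6, 160.0 and 157.9 in the sedentary fathers. It ran from 123 through 128 to 163 in the offspring of exercised fathers and from 119 through 152 to 189 in the offspring of sedentary fathers. Of the 7 offspring of exercised fathers, 6 lay below the median of the offspring of sedentary fathers, and none lay below that whole group. The log2 difference was -0.04 (SE 0.13, limma adjusted p = 0.948) in the fathers and -0.20 (SE 0.10, unadjusted p = 0.0577, adjusted p = 0.514) in the offspring.

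The AD21 libraries bear on these values. Exercised fathers replicate 4 was the lowest of its group for Kdr, Flt1 and Flt4, and the AD21 libraries of the offspring of sedentary fathers were the 2 lowest of 8 for each. Without the 3 AD21 libraries the Kdr difference was -0.09 in the fathers and -0.30 in the offspring, with limma adjusted p of 0.933 and 0.30. The Flt1 difference was then -0.16 in the fathers and -0.29 in the offspring, with limma adjusted p of 0.901 and 0.30, and the Flt4 difference was 0.07 in the fathers and -0.29 in the offspring. AD21 libraries occur in 1 group of each generation, so no difference within them could be computed, and the values above are those within the other libraries.

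Of the neuropilins, Nrp1 (ENSMUSG00000025810.9, GRCm38 chr8:128358604-128503363, plus strand), the co-receptor of KDR and of semaphorin 3A, had 2433.1, 3302.6, 2836.5 and 3056.5 normalized counts in the exercised fathers and 3378.0, 2975.0, 2954.7 and 2547.0 in the sedentary fathers. It ran from 2581 through 2936 to 3389 in the offspring of exercised fathers and from 2793 through 3085 to 3428 in the offspring of sedentary fathers. The groups overlapped throughout. By limma the log2 difference was -0.03 (SE 0.10, limma adjusted p = 0.947) in the fathers and -0.08 (SE 0.06, adjusted p = 0.654) in the offspring. A microRNA gene, Mir1903, lies on the same strand within 80 of its exonic bases, and its reads cannot be told apart from those of Nrp1.

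Nrp2 (ENSMUSG00000025969.15, GRCm38 chr1:62703285-62818695, plus strand), the co-receptor of FLT4 and of semaphorin 3F, had 3813.7, 3508.3, 4038.8 and 3944.8 normalized counts in the exercised fathers and 4082.9, 3971.3, 3563.4 and 3085.7 in the sedentary fathers. It ran from 3402 through 3701 to 3974 in the offspring of exercised fathers and from 3510 through 3711 to 4016 in the offspring of sedentary fathers. Only sedentary father replicate 4 stood below the rest. Between the groups, the log2 difference was 0.06 (SE 0.08, limma adjusted p = 0.842) in the fathers and -0.01 (SE 0.04, adjusted p = 0.926) in the offspring. The offspring interval, -0.09 to 0.07, was the narrowest of the family.

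Over the whole family, 7 of 9 estimates were below 0 in the fathers (median -0.04) and 6 of 9 in the offspring (median -0.08), where 48.8% of tested genes in the fathers and 50.4% in the offspring were below 0 and the medians of all tested genes were 0.0029 and -0.0009. None of the 9 passed at an adjusted p under 0.05, as 0% of the 17493 genes tested in the fathers and 0% of the 17522 tested in the offspring did by limma. At an unadjusted p under 0.05 there was 1 member of 9 in the fathers, Flt1, where 8.01% of all tested genes (1402) did, and 2 of 9 in the offspring, Vegfa and Flt1, where 9.85% (1726) did. No member had groups without overlap, which 5% of tested genes had in the fathers and 0.148% in the offspring. edgeR called 0 genes and DESeq2 called 66 in the fathers and 48 in the offspring, and no member was among them. DESeq2 gave no adjusted p to Vegfc, Pgf and Flt4 in the fathers, nor to Vegfc, Pgf, Kdr and Flt4 in the offspring, so it could not call those. For the difference of both contrasts, 0 members reached an unadjusted p under 0.05, where 5.67% of the 18377 tested genes (1042) did, and 4 of 9 were below 0, where 48.4% of tested genes were. There limma and edgeR called 0 genes and DESeq2 called 6.

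The authors' deposited table for the offspring gave Vegfa a moderated log2 fold change of -0.16 with p = 0.0160 and an adjusted p of 0.357. In the authors' deposited table Flt1 had -0.17 with p = 0.0246 and an adjusted p of 0.397, Kdr -0.14 with p = 0.0840 and Vegfb 0.09 with p = 0.0841. The authors' deposited table for the fathers gave each member an adjusted p of 1, with Flt1 at -0.10 and Kdr at -0.07. Flt4 was at 0.01 there, of opposite sign to the limma value of -0.04. At an adjusted p under 0.05 the authors called 11 of 12544 genes in the offspring and 14 of 24357 in the fathers. No member was among them, and Vegfc and Pgf had no adjusted p in the offspring.

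**Figure D3:**
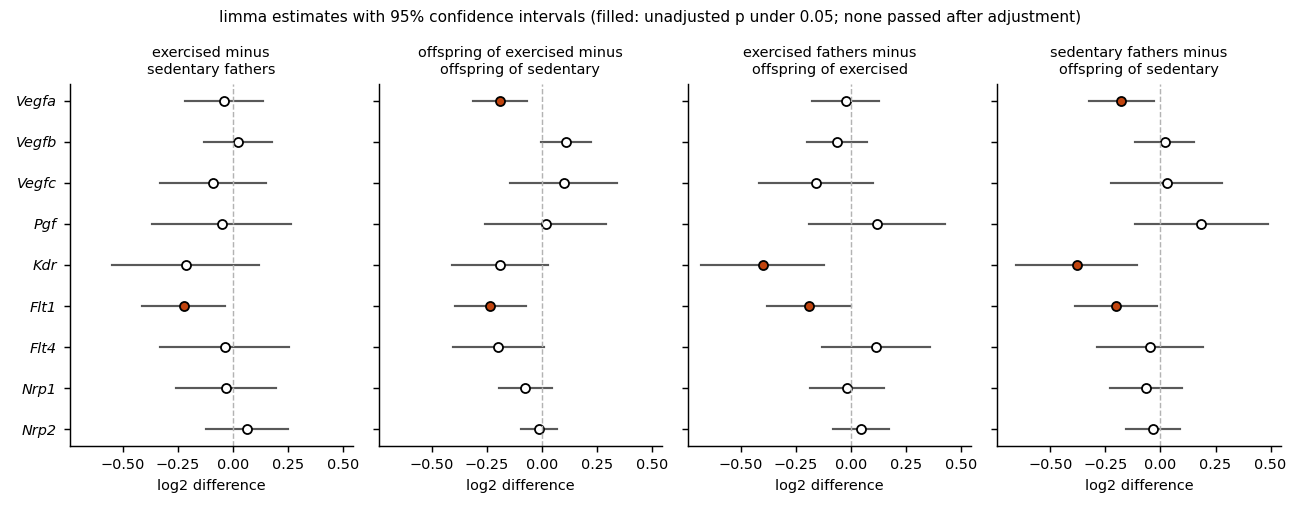
Log2 differences of the 9 members with 95% confidence intervals from limma in 4 comparisons, the first-named group minus the second; filled points have an unadjusted p under 0.05. Flt1 is filled in all 4 panels, Kdr in the 2 panels that set fathers against offspring, and Vegfa in 2 panels, and no point passed after adjustment.

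Fathers and offspring were also compared within each lineage, in 1 fit over 23 libraries. Generation, age, exercise of the animal itself in the exercised lineage and deposited table cannot be told apart in these comparisons. Kdr had the largest differences of the family. It averaged 541 ± 119 in exercised fathers (SD, n = 4), against 706 ± 94.1 in their offspring group (n = 7), and 618 ± 73.7 in sedentary fathers (n = 4), against 811 ± 136 in theirs (n = 8). All 4 exercised fathers lay below the median of the offspring of exercised fathers, 3 of them below each of its libraries, and all 4 sedentary fathers lay below the median of the offspring of sedentary fathers. On the log2 scale, the difference was -0.40 (SE 0.14, unadjusted p = 0.00682, limma adjusted p = 0.280) in the exercised lineage and -0.38 (SE 0.13, unadjusted p = 0.00863, adjusted p = 0.198) in the sedentary lineage. Without the AD21 libraries these were -0.28 and -0.49, with limma adjusted p of 0.465 and 0.0875. The value of 0.0875 was the smallest adjusted p of any member under any alternative run.

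Flt1 had log2 differences of -0.19 (SE 0.09, limma adjusted p = 0.486) in the exercised lineage and -0.20 (SE 0.09, adjusted p = 0.339) in the sedentary lineage. Vegfa had -0.03 (SE 0.07, adjusted p = 0.930) and -0.18 (SE 0.07, adjusted p = 0.280) in the same order by limma. Unadjusted, 2 of 9 members had p under 0.05 in the exercised lineage, where 10.1% of tested genes had, and 3 of 9 in the sedentary lineage, where 12.7% had. Estimates were below 0 for 6 of 9 members in each lineage, where 46.5% of tested genes were in the exercised and 49.4% in the sedentary lineage. No member passed after adjustment, where 0.0653% of tested genes (12) did in the exercised lineage and 0.299% (55) in the sedentary lineage. No member had groups without overlap, which 1.89% of tested genes had in the exercised lineage and 1.78% in the sedentary lineage.

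Endothelial markers were set beside the receptors, since KDR, FLT1 and FLT4 are made mostly by endothelium. The 18 markers, led in abundance by Slco1a4, Podxl and Itm2a, summed to 10660 to 14490 normalized counts in the exercised fathers, 11990 to 14360 in the sedentary fathers, 12080 to 15000 in the offspring of exercised fathers and 12850 to 15100 in the offspring of sedentary fathers. None was at 0 across all 23 libraries. In the fathers 14 of 18 had estimates below 0 (median -0.10) and in the offspring 16 of 18 (median -0.07), and none passed in either comparison. The 11 markers of mural cells, the pericytes and smooth muscle of vessel walls, had 11 of 11 estimates below 0 in the fathers (median -0.19) and 4 of 11 in the offspring (median 0.05). Markers of neighbouring tissue and blood also leaned to 1 side in the fathers, and none passed. All 14 choroid plexus markers had estimates above 0 (median 1.68), and below 0 were 10 of 10 meningeal fibroblast (median -0.58), 10 of 12 thalamus and habenula (median -0.50) and 5 of 5 erythrocyte markers (median -0.81). In the offspring the medians of these 4 lists were 0.03, 0.08, -0.08 and -0.08.

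With the endothelial marker mean in the model, the Flt1 difference was -0.17 in the fathers and -0.15 in the offspring, with limma adjusted p of 0.707 and 0.385. The Kdr difference was then -0.13 in the fathers and -0.08 in the offspring, and that of Vegfa in the offspring was -0.16. With the thalamus and habenula mean in its place, the Flt1 difference was -0.26 in the fathers and -0.19 in the offspring, and with the choroid plexus mean -0.22 and -0.23. The part of vessel content in these differences was otherwise not tested, and that of meningeal fibroblasts and erythrocytes was not tested. Cldn5, the tight junction protein of brain endothelium, fell by 0.57 on the log2 scale in exercised fathers against the offspring of exercised fathers (limma adjusted p = 0.0254) and by 0.44 in sedentary fathers against the offspring of sedentary fathers (adjusted p = 0.0477). Cldn5 was the only one of the 18 endothelial markers to pass in either lineage. In the exercised lineage 11 of the 18 had estimates below 0 and 7 above (median -0.09), and in the sedentary lineage 12 were below 0 and 6 above (median -0.06). Cldn5 averaged 832 ± 99.8 and 951 ± 21.3 in exercised and sedentary fathers (SD, n = 4 each), against 1242 ± 174 (n = 7) and 1296 ± 148 (n = 8) in their offspring groups. These calls were close to the threshold: Cldn5 passed in 21 of 26 alternatives in the exercised and in 10 of 27 in the sedentary lineage. With each library left out in turn it passed in 7 of 11 fits (limma adjusted p 0.0125 to 0.0744) and in 2 of 12 fits (0.0368 to 0.183).

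Each member was correlated with the mean of each of the 13 marker lists over 23 libraries, after centring on group means, in 117 pairs with a within-group permutation test of 100000 resamples. Flt4 followed the endothelial list (r = 0.69, rho = 0.71, permutation p adjusted over the pairs 0.0242 for r and 0.0173 for rho) and the mural list (r = 0.69, rho = 0.74, adjusted p 0.0176 and 0.0123). Without the 2 libraries farthest from the median list mean these were 0.62 and 0.60, with adjusted permutation p of 0.121 for each, so they rest in part on those libraries. With the meningeal fibroblast list, Flt4 had r of 0.68 (adjusted permutation p 0.0510) and rho of 0.74 (0.0173), and r was 0.74 without the 2 farthest libraries (0.0146). Flt1 had r of 0.67 with the endothelial list (adjusted permutation p 0.0510) and rho of 0.68 (0.0243), so that rho passed and r did not, and r was 0.64 without the 2 farthest libraries (0.121). Kdr had r of 0.65 (adjusted permutation p 0.0781) and rho of 0.65 (0.107) with that list. Pgf followed the interneuron list (r = 0.68, rho = 0.77, adjusted permutation p 0.0176 and 0.00819, and r = 0.82 without those 2). With the same list, r was 0.62 for Vegfb (adjusted permutation p 0.0781) and -0.61 for Flt1 (0.110). Pgf, Vegfb and Flt1 also followed a library-wide length index, given below, and its part in these values was not tested. The r of Flt4 was 0.89 in fathers and 0.59 in offspring with the endothelial list, and 0.78 in fathers and 0.65 in offspring with the mural list, and that of Pgf with the interneuron list was 0.52 in fathers and 0.76 in offspring. No pair passed within the 8 fathers or within the 15 offspring alone. With 4 fathers per group few distinct permutations exist, so a pass after adjustment over 117 pairs was hardly possible there. Even Nrp1 with the CA1 pyramidal list, at r of 0.93 in fathers, had an adjusted permutation p of 0.308.

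**Figure D4:**
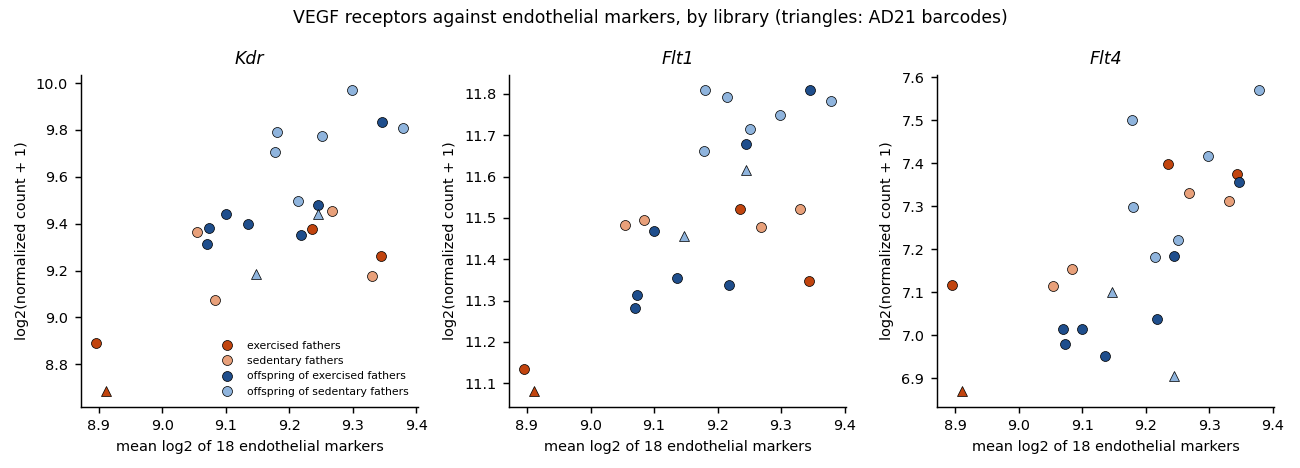
Log2(normalized count + 1) of Kdr, Flt1 and Flt4 against the mean log2 level of 18 endothelial markers, one point per library; triangles mark AD21 barcodes. Exercised fathers replicates 1 and 4 are lowest on both axes in the panels of Kdr and Flt1, and Kdr points of the offspring lie mostly above those of fathers with a like marker level.

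Library-wide shifts were measured next. For a length index, each gene's log2 level was taken minus its mean over 23 libraries. The index was the mean of these values in the decile of tested genes with the longest transcripts, minus that in the shortest decile. It ran from -0.08 to 0.07 in exercised fathers and -0.08 to 0.08 in sedentary fathers. It ran from -0.33 to 0.17 in offspring of exercised fathers and -0.22 to 0.31 in offspring of sedentary fathers. In 18 pairs of a member with this index or its GC counterpart, 5 of 9 members followed the length index by the same permutation test adjusted over the pairs. Vegfb (r = -0.74, rho = -0.72, adjusted p 0.00078 and 0.0036) and Pgf (r = -0.78, rho = -0.73, adjusted p 0.00078 and 0.0036), whose longest transcripts have 1281 and 2080 bases, were lower where long transcripts were higher. Flt1 (r = 0.72, rho = 0.68, adjusted p 0.00078 and 0.004), Nrp1 (r = 0.57, rho = 0.61, adjusted p 0.00562 and 0.00717) and Nrp2 (r = 0.51, rho = 0.61, adjusted p 0.00696 and 0.00706) were higher there. Without the 2 libraries farthest from the median index, r was -0.63, -0.69, 0.74, 0.55 and 0.38 for Vegfb, Pgf, Flt1, Nrp1 and Nrp2. Vegfb also followed the GC index (r = 0.70, rho = 0.72, adjusted permutation p 0.00378 and 0.0036, r = 0.71 without 2). Vegfa followed neither index (r of -0.02 and -0.03).

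With the length trend removed from each library, Flt1 differed by -0.21 in the fathers and -0.19 in the offspring (limma adjusted p = 0.583 and 0.293), and Vegfa by -0.20 in the offspring (adjusted p = 0.293). Vegfb then differed by 0.07 in the offspring. Both corrections were chosen after the data were seen, and no member passed under either.

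**Figure D5:**
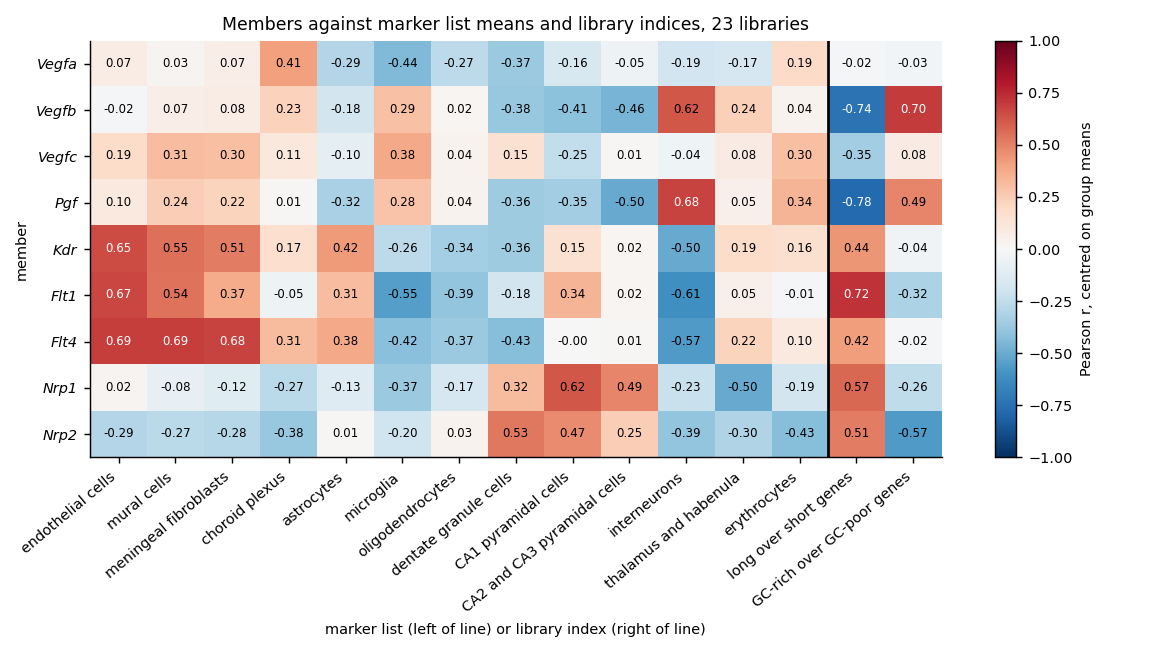
Pearson r between each member (rows) and the mean of each marker list or a library index (columns), over 23 libraries centred on group means; colours run from -1 to 1. Kdr, Flt1 and Flt4 are positive with endothelial and mural lists, Vegfb and Pgf are negative with the index of long over short genes, and Vegfa is weak in most columns.

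The genes whose library-to-library pattern was most like each member were named by highest r over 23 libraries after centring. Nearest to Flt1 were Abcb1a, the drug efflux pump of brain capillaries, at 0.91 and Ptprb, a phosphatase of vascular endothelium, at 0.86. Nearest to Kdr were the pseudogene Gm10443 at 0.87 and Cd93, a glycoprotein of endothelium, at 0.81. Nearest to Flt4 were Adam12 at 0.86 and Lama4, a laminin of vessel basement membranes, at 0.85. Vegfb lay nearest Pcsk1n at 0.91 and Akt1s1 at 0.90, Pgf nearest Psmd4 and Ndufs8 at 0.87 each, Nrp1 nearest 2900026A02Rik and Sstr4 at 0.88 each, and Nrp2 nearest Smc3 at 0.83 and Pola1 at 0.79. Vegfa had the least close neighbours, Ugdh at 0.73 and Nfkb1 at 0.715, and Vegfc lay nearest 1810014B01Rik at 0.78 and Gins1 at 0.77.

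The wider pathway was read from 6 lists of 112 genes, of which none passed in either exercise comparison. Of the hypoxia targets, genes that respond to low oxygen as Vegfa does, 16 of 21 had estimates above 0 in the fathers (median 0.05) and 8 of 21 in the offspring (median -0.02). Pfkl, a glycolytic enzyme, had 0.13 in the fathers (SE 0.03, limma adjusted p = 0.539). P4ha1, a collagen prolyl hydroxylase, had -0.33 (SE 0.09, adjusted p = 0.368) and Pfkfb3, a regulator of glycolysis, -0.18 (SE 0.07, adjusted p = 0.437) in the offspring by limma. P4ha1 averaged 2100 ± 179 for offspring of exercised fathers (SD, n = 7) and 2661 ± 454 for offspring of sedentary fathers (n = 8). It fell by 0.43 in sedentary fathers against the offspring of sedentary fathers (limma adjusted p = 0.0477), a call that held in 11 of 27 alternatives and in 3 of 12 fits that each left out a library (adjusted p 0.0286 to 0.188).

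Of the 10 hypoxia regulators, 8 had estimates above 0 in the fathers (median 0.04) and 4 in the offspring (median -0.06). Egln2, an oxygen-sensing prolyl hydroxylase, had 0.19 (SE 0.05, limma adjusted p = 0.539) and Hif1a, the oxygen-regulated transcription factor subunit, -0.10 (SE 0.03, adjusted p = 0.556) in the fathers. Hif3a, a related subunit, averaged 287 ± 22.9 in exercised fathers and 178 ± 69.7 in sedentary fathers (SD, n = 4 each). Its difference between them was 0.79 (SE 0.28, limma adjusted p = 0.560). It averaged 117 ± 16.2 for offspring of exercised fathers (n = 7) and 121 ± 48.7 for offspring of sedentary fathers (n = 8). Hif3a rose by 1.30 in exercised fathers against the offspring of exercised fathers (limma adjusted p = 0.0476), and that call held in 11 of 26 alternatives and in 1 of 11 fits that each left out a library (adjusted p 0.0489 to 0.231).

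Among the angiopoietin, Notch and tip cell genes, 8 of 21 tested had estimates above 0 in the fathers and 4 of 22 in the offspring (medians -0.04 and -0.06). Tek, the angiopoietin receptor, had -0.23 (SE 0.09, limma adjusted p = 0.565) in the fathers. Cxcl12, a chemokine of vessels and meninges, had -0.22 (SE 0.06, adjusted p = 0.368) and Apln, the tip cell peptide apelin, -0.22 (SE 0.08, adjusted p = 0.441) in the offspring by limma. None of these passed.

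Of the 14 ligand-processing and inhibitor genes, 7 had estimates above 0 in the fathers and 9 in the offspring (medians 0.04 and 0.07). Furin, a protease that matures VEGFC, had 0.14 (SE 0.06, limma adjusted p = 0.614) in the fathers and 0.11 (SE 0.05, adjusted p = 0.453) in the offspring. Pcsk5, a related protease, had -0.22 (SE 0.07, limma adjusted p = 0.556) in the fathers and 0.18 (SE 0.07, adjusted p = 0.451) in the offspring. Its difference between the contrasts, -0.39 (SE 0.11), had a limma adjusted p of 0.775. Vash2, a vasohibin, had -0.35 (SE 0.22, limma adjusted p = 0.684) in the fathers.

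Class 3 semaphorins and plexins act through neuropilins, and their list of 14 genes was not limited to them, since it also held L1cam. Of the 14, 5 had estimates above 0 in each generation (medians -0.03 in the fathers and -0.08 in the offspring). L1cam, a neuronal adhesion molecule, had -0.15 (SE 0.05, limma adjusted p = 0.560) and Sema3c -0.19 (SE 0.09, adjusted p = 0.619) in the fathers, and Sema3d had -0.18 (SE 0.09, adjusted p = 0.526) in the offspring. The genes of signal transduction were nearest to 0. Of 30 tested, 18 had estimates above 0 in the fathers and 11 in the offspring (medians 0.01 and -0.02). Ptpn1, a phosphatase, had 0.10 (SE 0.04, limma adjusted p = 0.593) in the fathers, and Map2k2, a kinase, 0.10 (SE 0.05, adjusted p = 0.503) and Nck1, an adaptor, -0.09 (SE 0.04, adjusted p = 0.516) in the offspring.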

How the data were processed

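RNA was extracted from hippocampus and sequenced from stranded, polyA-selected libraries at 76 bases from both ends, per the labels' protocols. STAR 2.5.2a, RSEM 1.2.28, DESeq2 1.10 and build GRCm38 are named, per the submitters' processing notes. The authors deposited a normalized count (a signal value, the gene count divided by 1 size factor per library) for 8 fathers and 15 offspring in separate tables, and an outlier is named as removed in the files' titles. The authors' deposited comparison tables hold mean signal, log2 fold changes, a Wald score and p-values. Whole reads were recovered from the steps of the deposited values within 0.1 for 100% of values, with 33667580 to 55172616 reads per library, and served edgeR 4.0.16 and DESeq2 1.42.0 as alternatives. Median ratios of 1.0026 to 1.0061 put both tables on 1 scale.

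The log2 of each normalized count plus 1 was tested with limma 3.58.1 under R 4.3.3, using a variance trend, on genes with at least 10 in as many libraries as the smaller group had. Such differences understate those of low genes. Fathers (17493 genes), offspring (17522) and all 23 libraries (18377) were fitted separately, with Benjamini-Hochberg adjustment over all genes and a threshold of 0.05. The steps were tested on simulated data. Of 51912 identifiers, 51633 matched GENCODE M21 without version, 47648 with it. Promoters came from RefSeq, GRCm38.p6, where all 9 members matched. In 61 pairs of libraries of 1 group, counts differed beyond sampling noise (chi-square per degree of freedom 5.987 to 66.67), including the pair with the same barcode label, so none was merged. Such a difference does not show that libraries are independent. Among offspring of exercised fathers, the pairs with a shared title start had 6.221, 12.76 and 6.821, and all other pairs 22.48 to 66.67. Alternatives covered the pseudocount, filters, normalization, sample weights, tools, marker covariates, the AD21 libraries, shared title stems, and each library left out. Named genes were all members, the 2 nearest genes of each by r, any pathway gene past the threshold and otherwise the 3 of each list with the smallest p within a generation, and the 3 most abundant genes of a marker list. The members and lists were chosen with earlier results of these data known.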

Additional observations from a re-analysis of the deposited data

Results flagged for a closer look

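Of 36 sets of values, each a member in 1 group, 2 had a library farther from the others than Dixon's 95% critical value allows, and chance sets apart about 1 in 20 such sets. Pgf was 146.2 normalized counts in replicate 7 of the offspring of exercised fathers, where the next value was 105.5. Kdr was 911.7 in replicate 1 of the offspring of exercised fathers, where the next value was 712.5.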

How the results depend on the processing

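Of 1305 member values under alternatives, 1215 kept their direction, 90 changed it and 0 passed. Values to which DESeq2 gave no adjusted p were counted as not passed. The largest of those that changed direction was 0.21. Vegfc, Kdr and Flt1 in the fathers, and 7 members in the offspring (not Pgf and Nrp2), kept their direction under each alternative run. The cause of each change below was not tested. Depth limits the low members most, since Vegfc, Pgf and Flt4 had about 79 to 189 normalized counts. The GC and length corrections were chosen after seeing the data. No paired analysis was possible because the replicate numbers come only from accession order and pair no samples.

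In the fathers, Pgf was 0.070 and Flt4 0.024 with array weights, Vegfb -0.027 and Flt4 0.070 without AD21 libraries, Pgf 0.0028 and Flt4 0.042 with the endothelial covariate, Vegfb -0.013 and Nrp1 0.060 with the choroid plexus covariate, Pgf 0.089 and Nrp2 -0.029 with the thalamus covariate, and Vegfb -0.059 and Nrp1 0.029 with the GC trend removed. DESeq2 called 66 genes against 0. In the offspring, Pgf was -0.0060 and Nrp2 0.015 under quantile normalization, Pgf -0.034 and Nrp2 0.0081 with array weights, Pgf -0.029 with the endothelial and -0.068 with the thalamus covariate, Pgf -0.025 with the GC trend removed, and Pgf -0.014 and Nrp2 0.025 with the length trend removed. Genes called were 1 with array weights, 1 with the endothelial covariate and 48 with DESeq2, against 0.

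For the difference of both contrasts, Flt1 was -0.024 after quantile normalization, Flt1 -0.0096 when the length trend was removed, and Pgf was 0.079 with array weights. Kdr was 0.031 with array weights, 0.0008 in edgeR, 0.0015 in DESeq2, 0.21 without AD21 libraries, 0.0019 with the endothelial and 0.053 with the thalamus covariate, where Nrp1 was -0.075. Genes called were 4 with no filter and 6 in DESeq2, against 0.

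In the sedentary lineage, 55 genes were called, against 32 with no filter, 24 under quantile normalization, 221 with array weights, 84 in edgeR, 369 in DESeq2, 8 without AD21 libraries, 190 with the choroid plexus and 1 with the thalamus covariate, 16 with title stems averaged, 4 with the GC and 12 with the length trend removed. Vegfc was -0.0053 under quantile normalization, Vegfc -0.022 and Nrp2 0.023 with array weights, Flt4 0.0070 with the endothelial covariate, and Vegfb -0.035, Vegfc -0.0029, Nrp1 0.076 and Nrp2 0.029 with the thalamus covariate. In the exercised lineage, 12 genes were called, against 3 with no filter, 5 under quantile normalization, 96 with array weights, 118 in DESeq2, 1 without AD21 libraries, 7 with the thalamus covariate, 3 with title stems averaged and 20 with the length trend removed. Vegfa was 0.0007 without AD21 libraries, and Nrp1 was 0.0003 with the choroid plexus and 0.0004 with the thalamus covariate.

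The 3 correlations whose r passed over 23 libraries passed neither within the fathers nor within the offspring alone. Within the fathers a pass was hardly possible, since 4 libraries per group allow few distinct permutations. Pgf with interneurons had r of 0.52 in fathers and 0.76 in offspring, Flt4 with endothelial cells 0.89 and 0.59, and Flt4 with mural cells 0.78 and 0.65. Without the 2 farthest libraries, r was 0.62 for Flt4 with endothelial and 0.60 with mural cells, which did not pass, and 0.82 for Pgf with interneurons, which passed, as did Flt4 with meningeal fibroblasts at 0.74.

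With each library left out in turn, genes called ran from 0 to 1 in the fathers, 0 to 1 in the offspring, 0 (without sedentary fathers replicate 4) to 135 (without replicate 3 of the offspring of sedentary fathers) in the sedentary lineage, and 0 (without exercised fathers replicate 3) to 28 (without replicate 5 of the offspring of exercised fathers) in the exercised lineage. In the fathers, Vegfa ran from -0.085 to 0.020, Vegfb from -0.027 to 0.079, Pgf from -0.126 to 0.066, Flt4 from -0.107 to 0.070, Nrp1 from -0.100 to 0.053 and Nrp2 from -0.017 to 0.118. In the offspring, Pgf ran from -0.076 to 0.072 and Nrp2 from -0.030 to 0.0071. For the difference, Pgf ran from -0.143 to 0.049, Kdr from -0.131 to 0.101, Flt1 from -0.072 to 0.075, Nrp1 from -0.025 to 0.128 and Nrp2 from -0.0036 to 0.131. In the sedentary lineage, Vegfb ran from -0.037 to 0.059, Vegfc from -0.018 to 0.077, Nrp1 from -0.131 to 0.0045 and Nrp2 from -0.086 to 0.048. In the exercised lineage, Vegfa ran from -0.072 to 0.034 and Nrp1 from -0.085 to 0.062.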
